A study of Mus musculus with 20 samples.

Results

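The enzymes and transcription factors of de novo lipogenesis were examined on the ribosomes of adipocytes from mouse epididymal adipose tissue (epiAT). The set held 10 genes (Acly, Me1, Acaca, Acacb, Fasn, Elovl6, Scd1, Scd2, Srebf1 and Mlxipl), which were picked by symbol and found by their Ensembl identifiers among the 46078 genes of the count table. No rule on measured values picked them, but earlier results of these data were known when they were chosen. All 10 were among the 21464 genes that passed the filter on low counts and were tested. The translatome was measured by TRAP–seq, in which GFP-tagged ribosomes of one cell type are pulled down from frozen tissue and the mRNA bound to them is sequenced. All 20 mice carried both AdipoERCre, a Cre recombinase under the Adipoq promoter that tamoxifen switches on, and the NuTRAP reporter, on the background that the labels write as C576BL6. All received tamoxifen when young and a washout before the diets began, so control mice had the same alleles and the same drug. In the short arm, C mice (chow, 18 weeks old) were the controls of H mice (12 weeks of high-fat diet, HFD, 18 weeks old), and CC_s mice (chow, 26 weeks old) were the controls of HC mice, which had 12 weeks of HFD and then 8 weeks of chow and were 26 weeks old. Each of these groups had 3 mice. In the long arm, CC_l mice (chow, 31 weeks old) were the controls of HH mice (25 weeks of HFD, 31 weeks old), and CCC mice (chow, 39 weeks old) were the controls of HHC mice, which had 25 weeks of HFD and then 8 weeks of chow and were 39 weeks old. Each of these groups had 2 mice. Each library came from 1 mouse.

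De novo lipogenesis makes fatty acids from carbohydrate carbon. Citrate that leaves the mitochondrion is split into acetyl-CoA, acetyl-CoA is carboxylated to malonyl-CoA, fatty acid synthase joins these units to palmitate, and an elongase and the stearoyl-CoA desaturases turn palmitate into longer and monounsaturated chains, with NADPH as the reductant. In adipocytes the pathway is known to respond to insulin and glucose through the transcription factors SREBP1 (from Srebf1) and ChREBP (from Mlxipl). The comparisons address how the lipogenic programme of adipocytes stood during obesity and after weight loss (WL).

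Depth ranged from 10710277 to 36738954 counts per library, the 10 genes together took 0.825% to 4.13% of the counts, and the smallest count of any of them in any library was 271. All 10 adipocyte markers (among them Adipoq and Plin1) were detected in every library, with a summed level between 15688 and 141362 CPM, the unit of counts relative to the TMM-normalized size of a library. In 4 libraries (C replicates 1 and 2, HC replicate 3 and CCC replicate 2) the summed level of 4 nuclear-retained RNAs (Malat1, Neat1, Meg3 and Kcnq1ot1) was 20395 to 37596 CPM, against 2787 to 12402 CPM in the others, and their adipocyte markers were low (15688 to 34553 CPM). Summed markers of macrophages reached 587 to 3158 CPM in H and 3282 to 4195 CPM in HH, against 215 to 398 CPM in C and CC_l, and none of the 10 was at 0 in any library. CC_l replicate 1 held 3330 CPM of 6 spermatid genes, against at most 508 CPM elsewhere. Because the pulldown is a bulk sample, fewer labelled cells and less RNA per cell cannot be told apart. The part of these library differences in the results was not tested, and fold changes that rest on the named libraries are given with and without them.

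**Figure D1:**
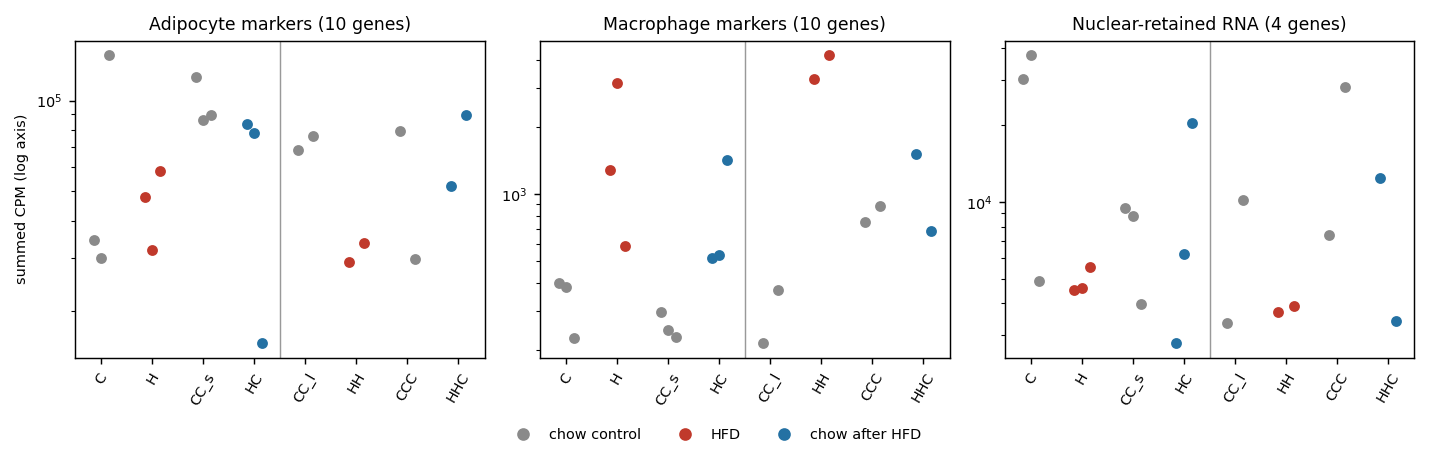
Summed CPM (log axis) of 10 adipocyte markers, 10 macrophage markers and 4 nuclear-retained RNAs in each of the 20 mice by group (grey, chow controls; red, HFD; blue, chow after HFD). The 2 low C points and the low CCC point in the adipocyte panel are the mice that stand high in the nuclear RNA panel, and both HH mice stand at the top of the macrophage panel.

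In lean adipocytes the 10 genes spanned a wide range of levels. Over the 10 chow-fed mice, Scd1, which introduces the double bond of oleate and palmitoleate, had a median of 4066 CPM per kilobase of exon and ranked 7 of the 21353 tested genes with a known length. Me1 (264 CPM per kilobase), which makes NADPH from malate, Fasn (182), the fatty acid synthase, and Acly (103), the ATP citrate lyase, followed. Srebf1 (65.2), Scd2 (37.1), Acaca (25.9), Mlxipl (16.2), Elovl6 (13.0) and Acacb (12.9) were lower, and the lowest of these medians still ranked 3200 of 21353. The spread among lean mice was large and unequal. Scd1 differed 2.28-fold between the lowest and the highest chow mouse, whereas Me1 differed 18.8-fold, Acly 14.2-fold, Mlxipl 13.6-fold and Fasn 9.72-fold. C replicate 3, the library highest in adipocyte markers, held the highest Me1, Acly and Fasn. Among the libraries rich in nuclear RNA, C replicate 2 held the lowest Me1 and Fasn, and CCC replicate 2 the highest Mlxipl. The spread thus includes these library differences. The place of Acaca depended on the length used, since its mean of 27.9 CPM per kilobase over all exons became 50.1 per kilobase of its longest transcript.

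**Figure D2:**
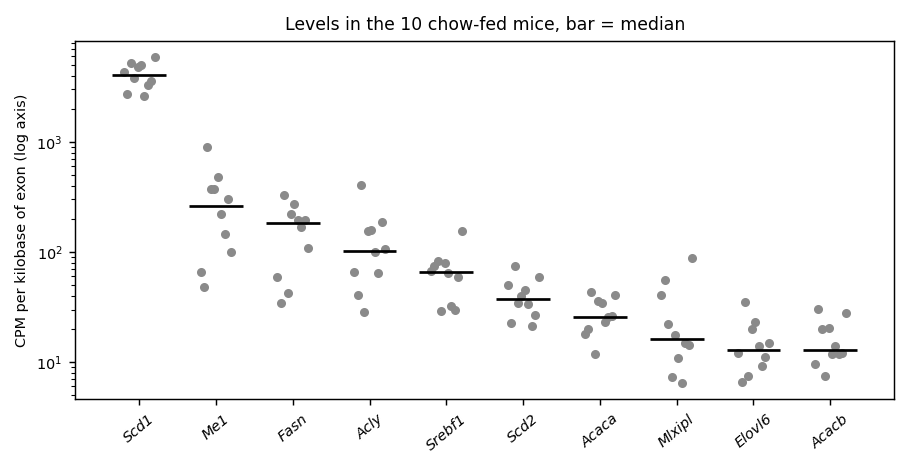
Levels of the 10 genes in CPM per kilobase of exon (log axis) in the 10 chow-fed mice of groups C, CC_s, CC_l and CCC (points) with the median (bar). The median of Scd1 (4066) stands highest, followed by that of Me1 (264), and Me1, Acly, Mlxipl and Fasn show the widest spread between mice.

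All 10 genes lie on the mouse autosomes of mm10 (GRCm38) in the GENCODE vM21 annotation. Acly (chr11:100476353-100528000, minus strand), Acaca (chr11:84129672-84401651, plus), Fasn (chr11:120805846-120824547, minus) and Srebf1 (chr11:60199089-60222581, minus) are on chromosome 11. Acacb (chr5:114146535-114250761) and Mlxipl (chr5:135089890-135138382) are on the plus strand of chromosome 5. The desaturase genes Scd2 (chr19:44293674-44306864, plus) and Scd1 (chr19:44394455-44407879, minus) are neighbours on chromosome 19, Me1 is at chr9:86581371-86695953 (minus) and Elovl6 at chr3:129532355-129638495 (plus). Counts of Acaca and Me1 are uncertain to the extent that 30.4% and 28.3% of their 50-base exon words also occur in other genes, such as the predicted genes Gm5182 and Gm7049. Scd1 (4.56%) and Scd2 (3.97%) share few such words with the other Scd genes. Exons of Mlxipl overlap an antisense gene, Gm43500, by 235 bases, and exons of Srebf1 overlap Rai1 on the other strand by 109 bases. The library preparation does not mark strand.

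Because the lipogenic genes are textbook targets of common promoter elements, the 250 bases before each listed start were read from RefSeq (GRCm38.p6). The promoter table held 12 starts of 8 of the 10 genes, and none of Scd1 or Scd2. The only windows of Acaca (chr11:84195188-84195437) and Acacb (chr5:114165268-114165517) lie inside these genes, downstream of the gene starts given above. The bases before those gene starts were not searched, and the motif counts do not cover them. The windows were searched on both strands for the sterol regulatory element TCACCCCAC of SREBP, the E-box CACGTG, the CCAAT box and the GC box GGGCGG, and in the windows printed here no motif overlaps another apart from the nearer pair of CCAAT boxes in Fasn, which lie on opposite strands. The sterol element was in 0 of 12 windows (0.496% of 32851 mouse promoters of that length), the E-box in 1 (6.02%), CCAAT in 6 (33.8%) and the GC box in 5 (32.7%). The only E-box was 98 bases before the more upstream of the starts of Mlxipl. Windows are shown for both starts of Mlxipl and for 1 of the 3 starts of Srebf1, the regulators whose changes are described below. Of the Srebf1 windows not shown, the most upstream held a CCAAT box 166 bases before its start, and the next held 2 GC boxes. Fasn is shown because it alone held 3 CCAAT boxes, at 90, 62 and 59 bases before its start. Capitals mark the E-box and CCAAT (or its complement ATTGG). A match describes these letters only. Near matches were not searched for, so 0 of 12 windows for a string as rare as the sterol element does not show that such elements are absent. Counts are per gene and do not separate the starts.
Mlxipl, upstream start, chr5:135089640-135089889, plus strand: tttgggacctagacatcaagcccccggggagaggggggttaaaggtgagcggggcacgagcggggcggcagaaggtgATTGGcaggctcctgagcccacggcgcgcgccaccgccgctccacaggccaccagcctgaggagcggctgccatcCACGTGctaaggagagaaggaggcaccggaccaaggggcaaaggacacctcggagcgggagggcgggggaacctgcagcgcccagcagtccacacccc
Mlxipl, downstream start, chr5:135106641-135106890, plus strand: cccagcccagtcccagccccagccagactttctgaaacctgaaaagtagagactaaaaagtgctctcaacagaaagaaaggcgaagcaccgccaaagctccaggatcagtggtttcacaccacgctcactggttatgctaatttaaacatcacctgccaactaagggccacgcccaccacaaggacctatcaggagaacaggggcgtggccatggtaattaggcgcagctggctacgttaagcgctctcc
Srebf1, most downstream start, chr11:60210472-60210721, minus strand: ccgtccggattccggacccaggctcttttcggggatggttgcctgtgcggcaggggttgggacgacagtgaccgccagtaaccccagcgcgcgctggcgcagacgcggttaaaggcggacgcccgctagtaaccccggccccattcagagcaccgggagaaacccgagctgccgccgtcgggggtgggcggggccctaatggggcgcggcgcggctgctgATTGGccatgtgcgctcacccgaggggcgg
Fasn, chr11:120824548-120824797, minus strand: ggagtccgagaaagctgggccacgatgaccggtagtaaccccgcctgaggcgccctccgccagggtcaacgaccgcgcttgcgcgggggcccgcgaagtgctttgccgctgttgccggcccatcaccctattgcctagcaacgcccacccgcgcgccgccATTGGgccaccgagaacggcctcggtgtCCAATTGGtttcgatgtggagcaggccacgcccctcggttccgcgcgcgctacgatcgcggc

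After 12 weeks of HFD, 5 of the 10 genes fell in H against C, where a change means a nominal p under 0.01 and 1 log2 unit or more in edgeR's quasi-likelihood test (626 of 21464 genes fell, 2.92%). They were both acetyl-CoA carboxylase genes, both transcription factors and the elongase Elovl6, and no gene of the set rose (3.57% of all genes did). Of the 10, 9 had lower fitted levels in H, with a median log2 fold change of -1.84, against -0.15 over all tested genes. With an adjusted p under 0.05, 4 of the 10 were called (2.12% of all genes). In 6 genes every H mouse was below every C mouse (11.8% of all genes), and in Scd2 every H mouse was above every C mouse (13.4%). In the same comparison all 10 macrophage markers were higher, 5 of them called, with a median log2 fold change of 1.96, and 6 of 10 adipocyte markers were lower, with a median of -0.52. All 6 endothelial markers were higher (4 called, median 1.88), 4 of 6 adipocyte progenitor markers were higher (1 called, median 0.33), and all 5 mesothelial markers (2 called, median -1.46) and all 4 nuclear-retained RNAs (1 called, median -1.91) were lower. The part of these shifts in the 10 genes was not tested.

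Mlxipl had the steepest decrease. On the log2 CPM scale it stood at 7.83, 8.26 and 6.93 in C replicates 1 to 3 and at 4.38, 3.13 and 4.56 in H replicates 1 to 3. The groups did not overlap, and the 2 highest values were those of the C libraries rich in nuclear RNA. The log2 fold change was -3.63 (SE 0.69, 12.4-fold, edgeR adjusted p = 0.012). Without the 4 libraries rich in nuclear RNA, which leaves 1 C mouse, Mlxipl was still called, with a log2 fold change of -2.68. Its call by the nominal rule also held when any single mouse was left out, between -3.92 and -3.31, whereas its edgeR adjusted p was above the threshold without H replicate 1 (0.055) or H replicate 2 (0.084). The adjusted call was also lost when libraries were scaled to the adipocyte markers (edgeR adjusted p = 0.25).

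Srebf1 was the most even of the 10 genes within these groups. It stood at 8.55, 8.72 and 8.86 in C and at 6.80, 6.68 and 6.87 in H. The groups were apart by more than 1 log2 unit with an SD of 0.16 in C and 0.10 in H. The log2 fold change was -1.93 (SE 0.47, edgeR adjusted p = 0.041), and -1.97 without the libraries rich in nuclear RNA. The nominal call held without any single mouse, but the adjusted p was above 0.05 in 12 of these 20 fits and reached 0.19 without H replicate 2. It was 0.052 without the libraries rich in nuclear RNA. When libraries were scaled to the adipocyte markers, Srebf1 was not called (-1.91, edgeR adjusted p = 0.48). With replicate number as a block its edgeR adjusted p was 0.10.

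The carboxylases make malonyl-CoA, Acaca (ACC1) in the cytosol for synthesis and Acacb (ACC2) at the mitochondrial surface, where malonyl-CoA restrains fatty acid oxidation. Acaca was at 8.28, 8.41 and 9.54 in C and at 6.02, 5.46 and 6.84 in H, with no overlap, and fell by 2.64 on the log2 scale (SE 0.57, edgeR adjusted p = 0.024). Acacb was at 6.53, 8.19 and 7.58 in C and at 4.84, 4.82 and 5.72 in H, again with no overlap, and fell by 2.40 (SE 0.55, adjusted p = 0.032 in edgeR). Both nominal calls held without any single mouse and without the libraries rich in nuclear RNA (-3.21 and -2.28). The adjusted call was lost in 3 of the 20 fits without 1 mouse for each gene, with edgeR adjusted p up to 0.16 for Acaca and 0.18 for Acacb, both without H replicate 2, and the adjusted p of Acacb was 0.055 without the libraries rich in nuclear RNA. Scaled to the adipocyte markers, Acacb was not called (-2.53, edgeR adjusted p = 0.40). Acaca was called by the nominal rule (-2.44) but not by the adjusted p (0.13). With replicate number as a block the edgeR adjusted p was 0.070 for Acaca and 0.062 for Acacb. With the H and C groups alone it was 0.056 and 0.059.

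For Acly, Fasn, Me1 and Elovl6 the comparison rested on C replicate 3. In that mouse they stood at 11.07, 11.83, 11.75 and 7.81, each the highest value of its gene in all 20 mice, whereas C replicates 1 and 2 stood at 8.43 and 7.75 for Acly and at 7.99 and 7.52 for Me1. C replicate 3 had the highest adipocyte markers of all libraries (141362 CPM), and C replicates 1 and 2 were rich in nuclear RNA. Elovl6, the elongase that takes palmitate to stearate, was at 6.27 and 5.42 in the other C mice and at 4.88, 5.12 and 5.63 in H, so that the groups overlapped. It fell by 1.60 (SE 0.53, edgeR adjusted p = 0.13), but the call was lost without C replicate 3 (-0.67) and without any H mouse (-1.45 to -1.84). Acly had a log2 fold change of -2.41 (SE 0.85, edgeR adjusted p = 0.15) and Fasn of -1.75 (SE 0.90, adjusted p = 0.33), which became -0.72 and -0.14 without C replicate 3. For Me1 the value of -1.22 (SE 0.86, adjusted p = 0.49 in edgeR) turned to 1.35 without that mouse. Without the 4 libraries rich in nuclear RNA, C replicate 3 is the only C mouse left, and Acly (-3.55), Fasn (-2.87) and Me1 (-2.52) were called as well, 8 of the 10 in all. C thus held libraries at both extremes, and for these 4 genes the value of H against C depended on which of them were kept.

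The desaturases went apart. Scd1, the main isoform of adipocytes, stood at 14.36, 13.72 and 14.64 in C and at 12.52, 12.56 and 13.41 in H, without overlap, with a log2 fold change of -1.39 (SE 0.68, edgeR adjusted p = 0.31). Scd2, a closely related isoform known from many other tissues, stood at 8.10, 6.96 and 8.67 in C and at 8.68, 9.14 and 9.06 in H, where the lowest H mouse was barely above the highest C mouse. Its log2 fold change was 0.90 (SE 0.47, edgeR adjusted p = 0.34), and neither gene was called.

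**Figure D3:**
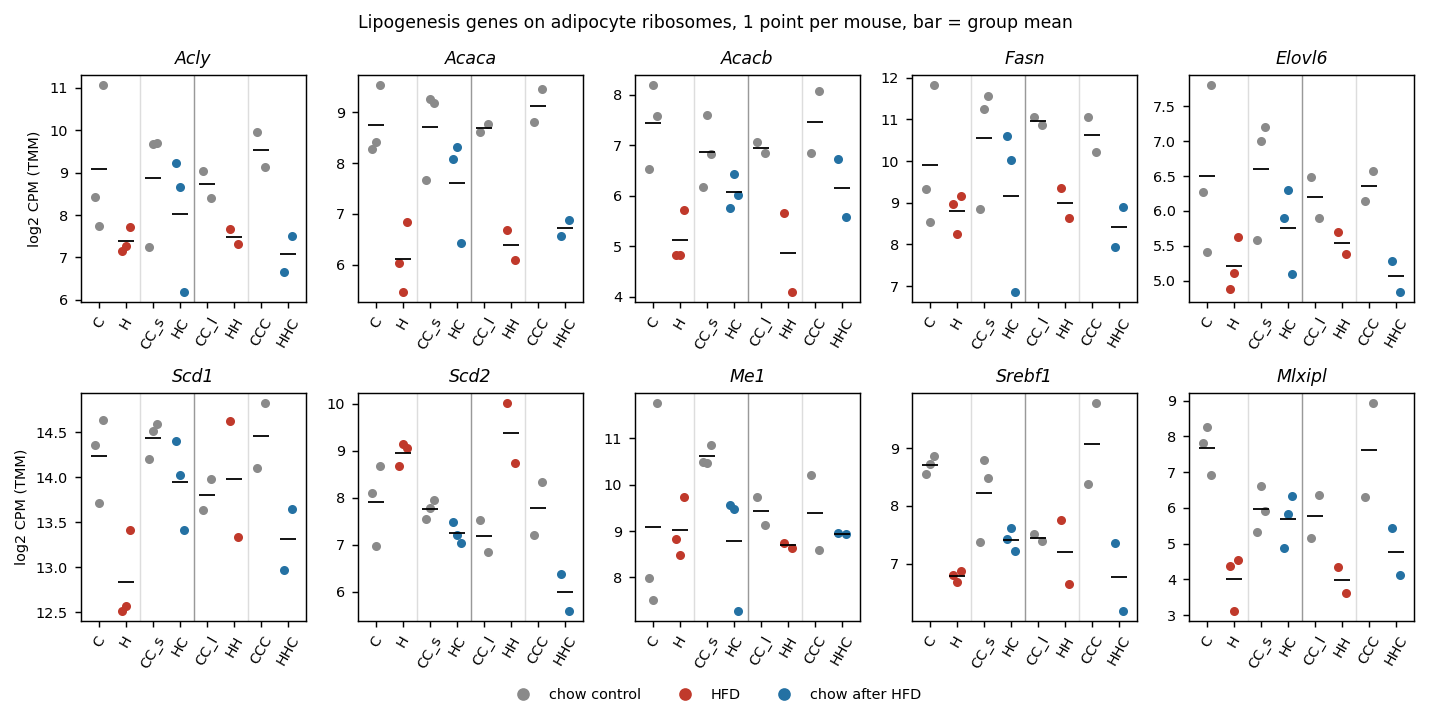
TMM-normalized log2 CPM of each gene in each of the 20 mice (points) with the group mean (bar), by group (grey, chow controls; red, HFD; blue, chow after HFD; the long arm is right of the darker line). Srebf1, Acaca, Acacb and Mlxipl in H lie below all C mice, C replicate 3 is the highest point for Acly, Fasn, Me1 and Elovl6, and Scd2 is highest in H and HH and lowest in HHC.

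After 12 weeks of HFD and 8 weeks of chow, none of the 10 genes was called in HC against CC_s (0 at an unadjusted p under 0.05 with edgeR, against 8.69% of all genes, and 0 of 10 called by DESeq2, against 3.46%), where 0.172% of all genes fell and 1.57% rose. All 10 fitted log2 fold changes were below 0, between -1.54 for Me1 and -0.26 for Mlxipl, with a median of -0.90 against 0.27 over all tested genes. Groups were apart in 2 genes, Me1 and Scd2, both lower in HC (5.82% of all genes were apart and lower, 8.01% apart and higher). In the same comparison 7 of 10 adipocyte markers were lower, none called, with a median of -0.67. Of the 10 macrophage markers 9 were higher, 5 of them called, with a median of 1.73. All 6 adipocyte progenitor markers were higher (1 called, median 0.83), whereas 3 of 6 endothelial markers were higher and 3 lower. The part of these shifts in the 10 genes was not tested. Srebf1 came nearest to the threshold. It was at 7.37, 8.80 and 8.49 in CC_s and at 7.42, 7.61 and 7.21 in HC, which overlapped, and the log2 fold change was -0.92 (SE 0.45, edgeR adjusted p = 0.58). Me1 was at 10.49, 10.48 and 10.87 in CC_s and at 9.56, 9.48 and 7.28 in HC, and its log2 fold change was -1.54 (SE 0.87, adjusted p = 0.61 in edgeR). HC replicate 3, the HC library rich in nuclear RNA and lowest in adipocyte markers, was the lowest of all 20 mice for Acly (6.18), Fasn (6.86) and Me1 (7.28). Without the 4 libraries rich in nuclear RNA the values of Acly, Fasn and Me1 were -0.30, -0.64 and -1.16, and still none of the 10 genes was called.

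Mlxipl in CC_s was at 5.34, 6.60 and 5.92, below every C mouse, and in HC at 4.89, 5.82 and 6.32. Its log2 fold change of -0.26 in HC against CC_s had an SE of 0.62 and turned to 0.13 without CC_s replicate 2 and to 0.04 without HC replicate 1. The difference between the H and the HC effects on Mlxipl was itself called, with an interaction of -3.37 (SE 0.90), but its edgeR adjusted p = 0.33 missed the threshold and it became -2.03, no longer called, without the libraries rich in nuclear RNA. It was the only one of the 10 genes for which these effects differed by the rule (2.51% of all genes had a lower and 0.480% a higher effect in H). For the other 9 the differences ranged from -1.67 for Acly to 1.41 for Scd2, and a p that misses the threshold does not show that the effects were alike.

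After 25 weeks of HFD, 1 of the 10 genes fell and 1 rose in HH against CC_l, Acaca and Scd2 (1.88% of all genes fell, 4.92% rose). With the adjusted p, 0 of the 10 passed in edgeR (2.07% of all genes did). The fitted log2 fold changes of 8 genes were below 0, with a median of -1.02 against -0.23 over all tested genes. In 7 of them both HH mice were below both CC_l mice, a pattern that 28.9% of all genes showed with these groups of 2.

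Acaca was at 8.62 and 8.77 in CC_l and at 6.67 and 6.09 in HH. It fell by 2.29 on the log2 scale (SE 0.69, edgeR adjusted p = 0.098), close to its value in H, and the call was lost without CC_l replicate 2 (-2.18) or without either HH mouse (-2.59 and -2.0). Scd2 was at 7.52 and 6.85 in CC_l and at 10.01 and 8.73 in HH, where HH replicate 1 had the highest level of the gene in any mouse. It rose by 2.28 (SE 0.59, 4.86-fold, edgeR adjusted p = 0.055), and the call was lost without HH replicate 1 (1.53) or CC_l replicate 2 (2.01). Beside the rise of Scd2, all 10 macrophage markers, all 6 endothelial markers and 4 of 6 adipocyte progenitor markers rose in HH, the first with a median log2 fold change of 3.59, and 9 of 10 adipocyte markers were lower with a median of -1.43. The part of these cells in the Scd2 level was not tested. When libraries were scaled to the adipocyte markers instead, which moved the median of all genes from -0.23 to 0.97, 1 of the 10 genes was called (3.74% of all genes).

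Of the other members, none was called. Acacb was at 7.06 and 6.84 in CC_l and at 5.66 and 4.09 in HH, with a log2 fold change of -1.88 (SE 0.66, edgeR adjusted p = 0.15). Mlxipl was at 5.16 and 6.36 in CC_l and at 4.35 and 3.63 in HH, with -1.86 (SE 0.78, adjusted p = 0.24 in edgeR). Neither passed the rule, although the HH mice lay within or below the range of H. Without the 4 libraries rich in nuclear RNA, none of which is in HH or CC_l, both were called, with -1.93 and -1.85. Without CC_l replicate 1, the library high in spermatid genes, as well, Acacb was no longer called (-1.69), whereas Mlxipl still was (-2.26). Srebf1 was at 7.52 and 7.39 in CC_l and at 7.76 and 6.64 in HH, so the groups overlapped, and the log2 fold change was -0.15 (SE 0.55, edgeR adjusted p = 0.92). CC_l had the lowest Srebf1 mean of the 4 chow groups (7.45, against 8.22 in CC_s, 8.71 in C and 9.08 in CCC), and both CC_l mice were within the range of HC. Scd1 in HH (14.63 and 13.33) spanned both CC_l mice (13.63 and 13.98). For Acly, Fasn, Elovl6 and Me1 the log2 fold changes lay between -1.93 and -0.68 with SEs of 0.64 to 1.11. No gene of the set differed by the rule between the HH and the H effects (1 at an unadjusted p under 0.05 with edgeR, Srebf1 with 1.79, adjusted p = 0.85, against 5.79% of all genes, whereas DESeq2 called 2, against 2.65%). Among all genes, 0.303% were lower and 0.610% higher by the rule in edgeR.

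**Figure D4:**
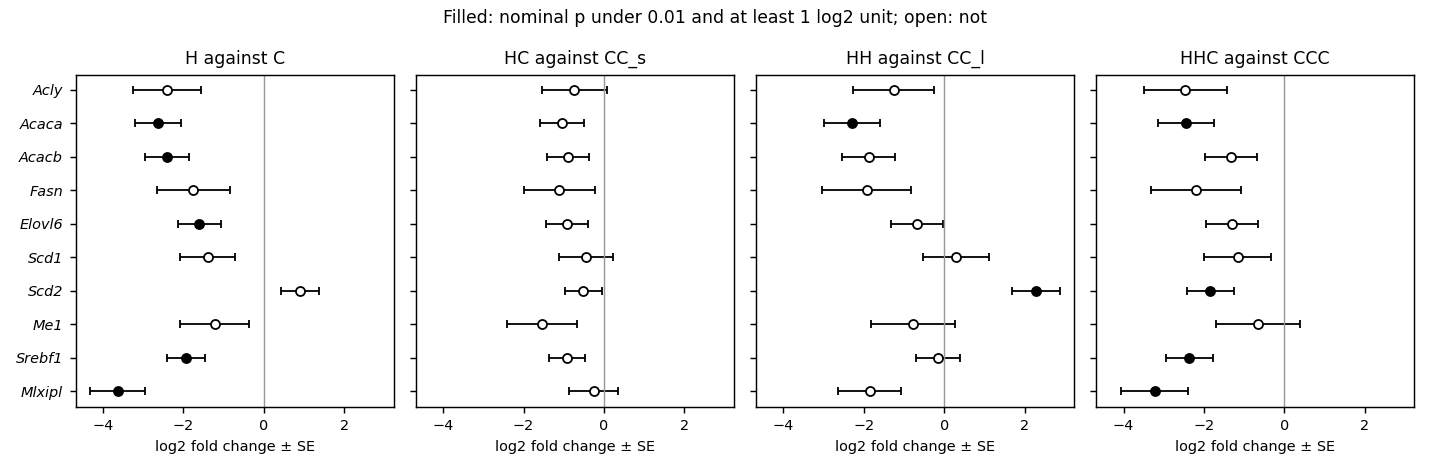
Log2 fold change ± SE of each gene against the chow group of its own age, from edgeR, for H (n = 3 against 3), HC (3 against 3), HH (2 against 2) and HHC (2 against 2). Filled points have a nominal p under 0.01 and at least 1 log2 unit. All HC and HHC points lie left of 0, 5 are filled in H and 4 in HHC, and Scd2 is the only filled point right of 0, in HH.

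After 25 weeks of HFD and 8 weeks of chow, 4 of the 10 genes fell in HHC against CCC, namely Acaca, Scd2, Srebf1 and Mlxipl (2.67% of all genes fell and 0.447% rose). None had an adjusted p under 0.05 (0 of 10, and none of all genes, with edgeR, while at an unadjusted p under 0.05 it was 5 of 10, against 10.7% of all genes, and DESeq2 called 4, against 5.64%). All 10 fitted values were below 0, with a median of -2.03 against -0.06 over all genes. Both HHC mice were below both CCC mice in 9 genes (20.3% of all genes), the exception being Me1.

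Srebf1 was at 8.39 and 9.78 in CCC and at 7.36 and 6.19 in HHC, and fell by 2.36 on the log2 scale (SE 0.58, edgeR adjusted p = 0.20). Mlxipl was at 6.31 and 8.92 in CCC and at 5.43 and 4.11 in HHC, and fell by 3.23 (SE 0.82, edgeR adjusted p = 0.20). Acaca was at 8.81 and 9.45 in CCC and at 6.56 and 6.87 in HHC, and fell by 2.44 (SE 0.70, edgeR adjusted p = 0.26). In each of these genes the upper CCC value was that of CCC replicate 2, which is rich in nuclear RNA and low in adipocyte markers (29953 against 79321 CPM in CCC replicate 1). The adipocyte markers as a list were not lower in HHC (7 of 10 higher, median 0.32, none called). Without CCC replicate 2 the values became -1.51 for Srebf1, -1.40 for Mlxipl, -2.09 for Acaca and -1.17 for Scd2, and 0 of the 10 genes was called. Without HHC replicate 2 it was also 0 (-1.89, -2.71, -2.61 and -1.51). The call of Acaca was lost without HHC replicate 1 too (-2.30), and that of Scd2 without C replicate 1 (-1.67), which is in neither group. Srebf1 and Mlxipl moved to -3.07 and -4.04 without HHC replicate 1, and Mlxipl to -4.01 without CCC replicate 1. With all 4 libraries rich in nuclear RNA left out, which leaves CCC replicate 1 alone, the called genes were Acaca (-2.01), Acly (-2.74) and Fasn (-2.49).

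Scd2 reversed its place between HFD and WL. From 10.01 and 8.73 in HH it was at 6.38 and 5.60 in HHC, the lowest levels of the gene in any mouse, against 7.20 and 8.34 in CCC. It fell by 1.85 against CCC (SE 0.59, edgeR adjusted p = 0.28). The difference between the HH and the HHC effects was 4.13 (SE 0.83, edgeR adjusted p = 0.034), the only such difference of the 10 genes that passed the adjusted p (0.815% of all genes) and the only one that passed the nominal rule (4.77% of all genes had a higher and 1.08% a lower effect in HH). By the nominal rule it stayed called without any single mouse (3.38 to 4.65; 3.38 without HH replicate 1 and 3.47 without CCC replicate 2) and without the libraries rich in nuclear RNA (3.30). The adjusted call was lost in 10 of the 20 fits without 1 mouse, with edgeR adjusted p up to 0.19, among them those without either CC_l mouse, either HHC mouse, HH replicate 1 or CCC replicate 2. It was also lost without the libraries rich in nuclear RNA (adjusted p = 0.10), when RLE replaced TMM (0.058) and when the fit held the 4 groups of this difference alone (0.23). Endothelial markers went the same way as Scd2, with 6 of 6 called higher in HH (median log2 fold change 2.73) and 6 of 6 lower in HHC, 2 of them called (median -2.11). In HHC, all 5 mesothelial markers (1 called, median -1.73) and 5 of 6 adipocyte progenitor markers (none called, median -1.02) were lower too. Their part in the Scd2 values was not tested.

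The other genes in HHC were lower without a call. Acly was at 9.96 and 9.13 in CCC and at 6.67 and 7.50 in HHC (log2 fold change -2.46, SE 1.04, edgeR adjusted p = 0.41), and Fasn at 11.05 and 10.22 in CCC and at 7.94 and 8.89 in HHC (-2.21, SE 1.12, adjusted p = 0.50 in edgeR). Acacb (-1.33), Elovl6 (-1.30) and Scd1 (-1.16) had SEs of 0.65 to 0.83, and Me1, whose HHC mice lay within the CCC range (8.96 and 8.94 against 10.20 and 8.59), had -0.66 with an SE of 1.04.

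Control groups of different ages differed as well. In CCC against CC_l, Srebf1 rose by 1.79 on the log2 scale (SE 0.57, edgeR adjusted p = 0.35), the only call in the 10 genes (0.755% of all genes rose and 1.91% fell), and Mlxipl had a log2 fold change of 2.26 (SE 0.79, adjusted p = 0.36 in edgeR). The Srebf1 call was lost without CCC replicate 2 (0.95) and without either CC_l mouse (1.86 and 1.75). In CC_s against C none was called (1.85% of all genes fell and 0.592% rose). The edgeR p was under 0.05 for 1 gene, Mlxipl, at -1.72 (adjusted p = 0.41, against 11.2% of all genes), in which all CC_s mice were below all C mice (7.39% of all genes, and 5.31% the other way), and DESeq2 called 1 (6.63% of all genes). Summed nuclear-retained RNA had medians of 30219 CPM in C and 17738 in CCC, the chow groups with the higher Mlxipl means, against 8825 in CC_s and 6750 in CC_l. The CCC median lies between 2 unlike mice (7381 and 28095 CPM). The part of nuclear-retained RNA in the Mlxipl levels was not tested. Because each HFD or WL group has its own control, comparisons between H and HC, or HH and HHC, also carry these differences between controls.

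Ranked by mean log2 CPM over the 8 groups, a chow group was highest for 9 of the 10 genes, CCC for Acly, Acaca, Acacb, Scd1 and Srebf1, CC_s for Elovl6 and Me1, CC_l for Fasn and C for Mlxipl. HHC was lowest for Acly, Fasn, Elovl6, Scd2 and Srebf1, H for Acaca and Scd1, and HH for Acacb, Me1 and Mlxipl. Scd2 alone had HH and then H at the top. Of the 70 pairs of neighbours in these orders, the mice of the groups did not overlap in 6, of which Scd2 had 3 (5.92% of such pairs over all tested genes), so most neighbouring groups did not differ beyond their spread. The highest and the lowest group were apart in all 10 genes, as they were in 79.7% of all tested genes, since they are picked as the extremes of small groups.

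Within groups, the genes varied together to different degrees. After subtraction of the group means, 41 of the 45 pairs of genes had a positive Pearson r over the 20 mice, with a median of 0.48. The pairs share libraries, depth and tissue make-up, and the values are a description. The highest r was that of Acly and Fasn, 0.98, and 8 pairs were above 0.8, mostly among Acly, Fasn, Me1, Elovl6 and Acaca. The lowest was -0.50 for Me1 and Mlxipl. Srebf1 and Mlxipl were related by an r of 0.65.

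**Figure D5:**
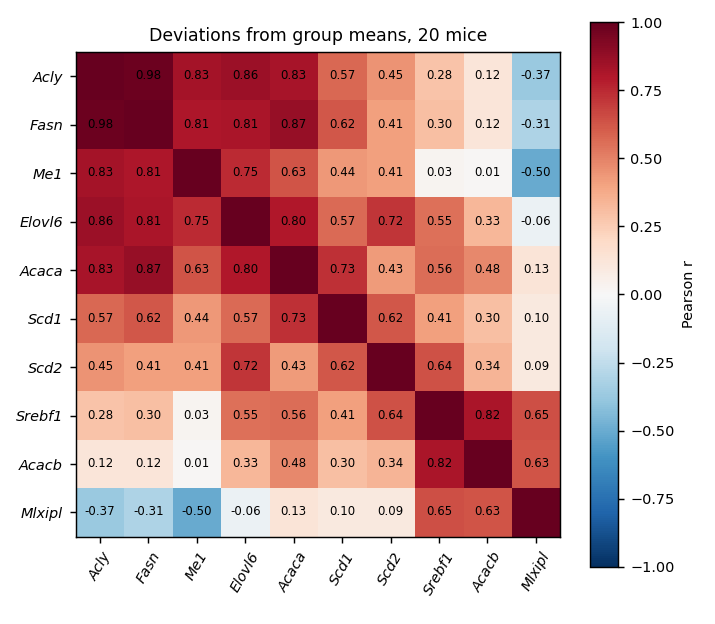
Pearson r between the genes' deviations from their group means of log2 CPM over 20 mice (colour scale from -1 to 1). Acly, Fasn, Me1, Elovl6 and Acaca form a block with r of 0.63 to 0.98, and Mlxipl has positive values with Srebf1 (0.65) and Acacb (0.63) and negative ones with Acly, Fasn and Me1.

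The relation of each regulator to each of the 8 enzymes was tested with 100000 permutations within groups, 16 relations in all, of which 3 passed a Benjamini-Hochberg adjusted p of 0.05. All 3 were of Srebf1, with Acacb (Pearson r 0.82, permutation p = 0.0026, adjusted p = 0.021; Spearman rho 0.83, p = 0.0023, adjusted p = 0.018), Acaca (r 0.56, p = 0.0074, adjusted p = 0.040; rho 0.64, p = 0.0034, adjusted p = 0.018) and Elovl6 (r 0.55, p = 0.0023, adjusted p = 0.021; rho 0.69, p = 0.0011, adjusted p = 0.018). Without the 2 mice whose Srebf1 was farthest from the median, CCC replicate 2 and C replicate 3, r was 0.79, 0.56 and 0.67, but none of the 16 relations passed the adjusted threshold. Within the short arm (12 mice) r was 0.66, 0.76 and 0.66, and within the long arm (8 mice) 0.98, 0.58 and 0.80, where each group of 2 gives mirrored deviations. The r of Srebf1 changed sign between the short and the long arm for Acly (0.67 and -0.56), Fasn (0.66 and -0.46) and Me1 (0.28 and -0.54). It stayed positive for Scd1 (0.37 and 0.45) and Scd2 (0.22 and 0.94). The relations were not run without all 4 libraries rich in nuclear RNA. Mlxipl had no relation past the threshold, with r between -0.50 for Me1 and 0.63 for Acacb.

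Other genes of the pathway were followed in lists chosen by function. Of 9 genes for precursor and NADPH supply, none was called in any of the 4 comparisons, against 2.92% of all genes lower in H. Their median log2 fold change was -0.34 in H, -0.53 in HC, -0.76 in HH and -0.31 in HHC. The 3 with the highest levels were Mpc2, a subunit of the mitochondrial pyruvate carrier (-0.34 in H, -1.09 in HH), Idh1, the cytosolic isocitrate dehydrogenase that makes NADPH (-0.34 and 0.30), and Cs, the citrate synthase (-0.59 and -0.76). Of 17 further regulators, 2 fell in H, Mid1ip1, which promotes polymerization of acetyl-CoA carboxylase (-2.39, SE 0.82, adjusted p = 0.14 in edgeR), and Prkaa2, a catalytic subunit of AMP-activated kinase, which inactivates that enzyme (-1.45, SE 0.50, adjusted p = 0.14). Both calls were lost without C replicate 3 (-0.74 and -0.70) and without several other single mice. None of the 17 was called in HC, HH or HHC.

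Of the 10 partners in elongation and desaturation, 9 were tested. Fads1, the delta-5 desaturase, fell in H (-1.37, SE 0.35, edgeR adjusted p = 0.049), a call that was lost without the libraries rich in nuclear RNA (-0.99), and its adjusted call was lost in 16 of the 20 fits without 1 mouse (adjusted p up to 0.19). In HH, 3 rose, Hsd17b12, the ketoacyl-CoA reductase of the elongation cycle (1.81, SE 0.44, edgeR adjusted p = 0.042), Elovl1 (1.62, adjusted p = 0.053) and Elovl5 (1.48, adjusted p = 0.083), beside macrophage markers that rose in the same mice. Hsd17b12 stayed called by the nominal rule without any single mouse, but its adjusted call was lost in 10 of these 20 fits (edgeR adjusted p up to 0.40, without CC_l replicate 1), whereas Elovl1 was lost without CC_l replicate 1 (1.26) or HH replicate 1 (1.39) and Elovl5 without HH replicate 1 (1.14) or either CC_l mouse (1.71 and 1.32). In HHC, Fads2, the delta-6 desaturase, fell by 4.27 (SE 1.32, edgeR adjusted p = 0.28), which ranged from -9.64 without HHC replicate 2 to -3.06 without CCC replicate 2 and was not called in the latter, nor without HHC replicate 1 (-3.40). None of the 9 was called in HC.

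The genes most alike the set were found by the Pearson r, over 20 mice, between a gene's log2 CPM and the mean of the 10 genes, with the mean of each arm subtracted. The 6 highest were Trub2 (0.93), a pseudouridine synthase, Ptges (0.92), the prostaglandin E synthase, Gpam (0.91), the mitochondrial glycerol-3-phosphate acyltransferase of triglyceride synthesis, Afap1 (0.91), Gucd1 (0.90) and Cnst (0.88). Among the 10 genes themselves, Elovl6 (0.95) and Acaca (0.94) were closest to the mean they belong to and Scd2 was farthest (0.11).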

How the data were processed

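TRAP–seq libraries of 20 mice were analysed, and groups were taken from the sample titles and treatments. According to the methods and the submitters' processing notes, reads were checked with FastQC 0.11.9, trimmed with Trim Galore 0.6.6, aligned to mm10 with HISAT2 2.2.1 and assigned to genes with featureCounts (Subread 2.0.1). The authors deposited raw read counts per gene as whole numbers, without normalization. The annotation, strand setting and handling of read pairs are not given in the sources used here, and 74.4% to 89.2% of the nonzero counts per library were even. If both reads of a pair were counted, counts are larger than the number of fragments, and halved counts were tried as an alternative.

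From these counts, edgeR 4.0.16 (R 4.3.3) was used with filterByExpr, TMM and quasi-likelihood tests over all 20 libraries in 8 groups, which share 1 estimate of the spread. Log2 CPM used a prior count of 2. A gene was called changed at a nominal p under 0.01 with 1 log2 unit or more in either direction, the cut-offs of the study's methods, and Benjamini-Hochberg adjusted p-values are over all tested genes. Fold changes compare fitted group means of counts, so a single high mouse weighs more than in mean log2 CPM. Differences between effects were tested as interactions in the same fit. The procedure was tested on simulated data. A count floor of 3 corresponds to 0.0817 to 0.280 CPM, which covers counting error only.

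The genes and lists were chosen with earlier results of these data known. Named genes were the 10 members, every listed pathway gene changed in a comparison or else the 3 with the highest level, and the 6 genes most alike the members. Exceptions singled out in the text for a single mouse or library were chosen after their values were seen. Alternatives were RLE normalization, scaling to adipocyte markers, no filter, the likelihood ratio test, DESeq2 1.42.0, only the compared groups, halved counts, a replicate block, an adjusted p threshold and leaving out each mouse. A covariate of nuclear-retained RNA and leaving out libraries rich in nuclear or spermatid RNA were added after seeing the data. Short and long arm libraries carry different run labels, so arm and run cannot be told apart.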

Additional observations from a re-analysis of the deposited data

Results flagged for a closer look

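For 6 genes the effect of diet against the matched chow group differed between groups of mice by the nominal rule, in a test of the difference itself in edgeR. Mlxipl had a lower effect in H than in HC by 3.37 on the log2 scale (-3.37, SE 0.90, adjusted p = 0.33), where H against C gave -3.63 and HC against CC_s -0.26. Scd2 had a higher effect in HH than in HHC (4.13, SE 0.83, adjusted p = 0.034), at 2.28 in HH and -1.85 in HHC. Its adjusted p was above 0.05 in 10 of the 20 fits without 1 mouse. Among the other genes of the pathway, effects in HH were higher than in HHC for Hsd17b12 (2.2), Elovl1 (2.13) and Elovl5 (1.98) and lower for Usf2, a transcription factor that binds E-boxes (-2.06). Without CCC replicate 2, which is rich in nuclear RNA, the differences of these 4 genes became 1.65, 1.60, 1.66 and -1.97 and were no longer called, and that of Usf2 was -1.10 without HHC replicate 1. The cause of these differences was not tested.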

How the results depend on the processing

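Values for single genes were followed whether called or not. Of these, 997 of 1080 without 1 mouse and 510 of 626 others kept their direction and their side of the threshold. Most of the 1080 leave out a mouse outside the compared groups, and the 626 include correlations and levels, the latter judged by their SD. These shares therefore do not measure how firm the calls are. Causes of the exceptions were not tested. The deviations of same-numbered mice had correlations of -0.28 to 0.19. With groups of 2 or 3 mice, and mirrored deviations in groups of 2, these values cannot exclude that the numbers pair the mice. A fit with the replicate block called 4 genes in H (4.81% of all genes), 3 in HH (4.85%), 4 in HHC (1.75%) and 0 in HC (0.95%). No group had every mouse best matched to its own number. The smallest count of any of the 10 genes was 271, above the floor of 3 counts. In groups reduced to 1 mouse, that mouse was assumed to vary like the others.

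Scaling to the adipocyte markers moved the median of all genes to -0.04 (H), 1.77 (HC), 0.97 (HH) and -0.65 (HHC). It called 2 genes in H, Mlxipl and Acaca (2.62% of all genes), 1 in HH (3.74%) and 0 in CCC against CC_l (0.368%). It called 4 in the difference of HH and HHC effects (4.71%) and 1 in that of HH and H effects (0.186%). It reversed values in HC for Acacb (0.50), Elovl6 (0.13), Scd1 (0.73), Scd2 (0.85), Srebf1 (0.40) and Mlxipl (1.52) and in HH for Elovl6 (0.52), Me1 (0.42) and Srebf1 (1.09). Relative to the shifted medians these values were lower in HC and, apart from Srebf1, in HH. Without the filter the counts were 1 in HC (5.12% of all genes), 4 in HH (8.36%), 1 in CC_s against C (5.82%) and 2 in CCC against CC_l (5.59%). For the differences they were 2 (H and HC effects, 6.06%), 2 (HH and HHC, 6.37%) and 1 (HH and H, 2.55%). The likelihood ratio test called 1 in CC_s against C (5.31% of all genes), 2 in CCC against CC_l (5.24%) and 2 in the difference of HH and HHC effects (8.52%). DESeq2 called 1 (6.63%), 2 (4.86%) and 2 (9.13%) there and 2 in the difference of HH and H effects (2.65%). RLE called 1 in CC_s against C (3% of all genes). With the compared groups alone it was 1 in HHC (1.38%), 1 in CC_s against C (1.98%), 0 in CCC against CC_l (1.3%) and 1 in the difference of HH and H effects (1.32%). An adjusted p under 0.05 left 0 in HH (2.07% of all genes). It also left 0 in HHC, CCC against CC_l and the difference of H and HC effects (0% of all genes in each).

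Among alternatives chosen after seeing the data, the covariate of nuclear-retained RNA gave 8 in H (12.6% of all genes), 1 in HC (2.28%), 7 in HHC (3.53%) and 2 in each of the differences of H and HC (3.33%) and of HH and HHC effects (9.21%). Without the 4 libraries highest in nuclear RNA it was 8 in H (8.51%), 4 in HH (10.8%), 0 in CCC against CC_l and 2 in the difference of H and HC effects (3.17%), and without these and the library highest in spermatid genes 8 (10.1%), 3 (6.12%), 0 and 2 (3.78%), with 2 in the difference of HH and H effects (0.985%). Over the 11 alternatives that keep the nominal rule, the share of all genes called ranged from 2.62% to 12.6% in H, 0.95% to 5.12% in HC, 3.74% to 15.0% in HH and 0.964% to 5.64% in HHC.

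Leaving out each mouse gave 4 to 6 calls in H, 0 to 0 in HC, 0 to 3 in HH, 0 to 5 in HHC, 0 to 2 in CC_s against C, 0 to 2 in CCC against CC_l, and 1 to 2, 1 to 2 and 0 to 0 in the differences of H and HC, HH and HHC, and HH and H effects. Over these fits the share of all genes called was 3.55% to 8.48% in H, 0.744% to 2.79% in HC, 2.49% to 8.72% in HH and 0.58% to 4.96% in HHC. For the controls it was 0.601% to 10.2% in CC_s against C and 0.555% to 4.19% in CCC against CC_l. For the 3 differences, in the order above, it was 1.17% to 5.82%, 2.32% to 7.52% and 0.302% to 3.17%. HH had 0 without CC_l replicate 2 and 1 without either HH mouse, and HHC had 0 without CCC replicate 2 or HHC replicate 2. In CC_s against C, 2 were called without C replicate 3 and 1 without either CCC mouse, and in CCC against CC_l 0 without CCC replicate 2 or either CC_l mouse and 2 without CCC replicate 1, H replicate 2, HC replicate 1 or 3, or either HHC mouse. The difference of H and HC effects had 2 without C replicate 3, and that of HH and HHC effects 2 without CC_s replicate 1, HH replicate 2, CCC replicate 1 or HHC replicate 1. Signs turned for Me1 in H (-1.74 to 1.35; 1.35 without C replicate 3), Mlxipl in HC (-0.63 to 0.13; 0.13 without CC_s replicate 2 and 0.04 without HC replicate 1), Scd1 in HH (-0.47 to 0.83; -0.47 without HH replicate 1), Srebf1 in HH (-0.79 to 0.32; 0.32 without HH replicate 2) and Me1 in HHC (-1.26 to 0.36; 0.36 without CCC replicate 1). Of the 16 relations between regulators and enzymes, 1 passed with RLE, 0 without the 2 farthest mice and 1 in the short arm alone. In the long arm alone no relation could pass, because groups of 2 allow too few distinct permutations for a small p.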
